A study of Mus musculus with 7 samples.

Results

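Newly formed oligodendrocytes were described in 7 droplet single-cell libraries of mouse brain. A cell counted as newly formed when it held at least 2 UMIs (unique molecular identifiers, the count of captured transcript molecules) of Enpp6, at least 2 UMIs of Bcas1 and at most 1 UMI of the microglial genes Cx3cr1 and P2ry12 together. Only cells with at least 500 detected genes and at most 10% of UMIs in mitochondrial genes were kept. The rule found 896 such cells among 21002 kept cells, which is 4.27%. Because Enpp6 and Bcas1 UMIs chose the cells, their levels are given below as a description and were left out of the contrasts.

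The libraries were made with the Chromium 3' kit from primary brain cells of mice with no treatment listed: P2, P7 and P15 cortex and the P7 subventricular zone (SVZ) form the early postnatal group, and P60 cortex, P60 grey matter and P60 white matter the adult group. The genotype field gives C57BL/6 for the P7 SVZ and CD1 for all others, with no transgene named. Cortex pieces reached from the ventricular wall to the grey matter, the grey matter piece lay above the white matter, and the white matter piece held the corpus callosum together with the ventricular zone. The labels do not say whether the libraries come from separate animals or how many animals each pooled, so p-values here measure only the spread between these libraries. Sets of 7 values run by age in what is called library order: cortex at P2, cortex at P7, SVZ at P7, cortex at P15, then cortex, grey matter and white matter at P60. Sets of 5 values for committed cells are the 4 early libraries followed by P60 white matter, and sets of 4 values beside mature cells are P15 followed by the P60 libraries.

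Oligodendrocytes, the cells that wrap axons in myelin, arise from dividing precursors that carry the growth factor receptor Pdgfra. On leaving the cell cycle a precursor passes a short committed step marked by the receptor Gpr17, then a newly formed step marked by Enpp6, a choline-specific phosphodiesterase, and by Bcas1, a protein of early myelinating cells. Newly formed cells extend many processes and either contact axons and myelinate or die. Mog, a protein of the outer myelin surface, comes on late. The transcription factor Tcf7l2, the calcium-release channel Itpr2 and the focal-adhesion protein Tns3 are known to be transient at the newly formed step.

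Libraries held 1879 to 4140 kept cells. Newly formed cells were deeper than the cells around them, with median UMIs of 14497, 15913, 14921, 13484, 6069, 8216 and 8920 in library order against 9588, 6920, 8363.5, 5639, 2813, 6135 and 4459.5 in all kept cells. Their summed counts ran from 125816 UMIs in P60 grey matter to 7208678 in P15 cortex, so a count of 3 UMIs corresponds to between 0.416 and 23.8 CPM (the UMIs of a gene scaled to a total of 1000000). Of 21 pairs of libraries, 1 shared a newly formed cell barcode, and a pair shared at most 23 kept barcodes. The labels give no sex, but the adult sums held 0 UMIs of the Y-linked genes Ddx3y and Eif2s3y, against 787 and 836 in the early sums, and Xist was higher in the adult sums (log2 difference 2.20 ± 0.30 SE, edgeR quasi-likelihood test, adjusted p = 0.00969). These genes were picked after their values were seen, and stage and the sex of the animals cannot be told apart here.

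All 4 markers fixed for newly formed cells were present in all 7 sums of them. Enpp6 stood at 900, 1400, 1247, 955, 1225, 994 and 869 CPM in library order. Bcas1 stood at 2395, 2419, 2237, 1241, 1503, 763 and 1084 CPM. Both are set by the rule, whereas the following pair is not. Itpr2 stood at 351, 255, 584, 219, 128, 95.4 and 126 CPM. Tns3 stood at 529, 507, 539, 281, 484, 183 and 262 CPM. Itpr2 and Tns3 were thus found in every library, with the P60 grey matter lowest for both. Summed levels of 5 excitatory neuron markers, 4 endothelial markers, 4 mural markers and 3 ependymal markers stayed between 0 and 47.9 CPM in every library, and all 5 excitatory neuron markers were at 0 in the 3 adult sums. Summed microglial markers reached 636 CPM in P60 grey matter, where 4 of 7 were above 100 CPM, against 8.26 to 260 CPM in the other 6 libraries. Astrocyte markers summed to between 66.1 and 278 CPM.

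The edge of the rule was well populated. Exactly 2 Enpp6 UMIs were held by 74 newly formed cells and at least 5 by 711. Exactly 2 Bcas1 UMIs were held by 43 cells. Just outside the rule, 128 cells had 1 Enpp6 UMI with at least 2 of Bcas1, and 168 cells had at least 2 Enpp6 UMIs with fewer than 2 of Bcas1. Of those 168 cells, 83 were in P60 white matter and 50 in P60 cortex, more than the 63 and 41 cells that met the rule there. A further 29 cells met both minimums but held more than 1 microglial UMI. In microglia, which should lack Enpp6, 0, 5.41, 3.55, 2.47, 0.804, 0.142 and 1.87% of cells in library order held an Enpp6 UMI, at median depths of 2520 to 12364 UMIs. At least 2 Enpp6 UMIs, the minimum of the rule, were held by 0 to 0.709% of microglia.

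Newly formed cells were most frequent at P15. They made up 0.579% (exact binomial 95% interval 0.349 to 0.902) of kept cells in P2 cortex, 3.70% (3.14 to 4.32) in P7 cortex, 3.57% (3.0 to 4.22) in P7 SVZ and 16.4% (15.1 to 17.8) in P15 cortex. The share in P60 cortex was 1.32% (0.946 to 1.78). P60 grey matter had 0.852% (0.487 to 1.38) and P60 white matter 3.16% (2.44 to 4.03). The interval of P15 cortex lay above those of the other 6 libraries, those of P7 cortex, P7 SVZ and P60 white matter overlapped, those of P60 cortex and P60 grey matter overlapped, and that of P2 cortex overlapped P60 grey matter. Intervals cover counting error only. The early libraries averaged 6.07 ± 7.06% (SD, n = 4) and the adult ones 1.78 ± 1.22% (SD, n = 3), a difference that did not pass the two-sided exact permutation test (p = 0.343, 0.392 after adjustment over 8 measures). With 4 against 3 libraries that test cannot go below 0.0571. The early mean rests on P15 cortex and was 2.61% without it, which leaves an adult minus early difference of -0.838 percentage points in place of -4.29.

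Shares of all kept cells also depend on which other cells each dissection held. Within the lineage itself, defined by 4 UMI gates, newly formed cells were the largest group in P7 cortex, P7 SVZ and P15 cortex. The other gates were precursor cells (at least 2 Pdgfra UMIs, 337 cells), committed cells (at least 2 Gpr17 UMIs and at most 1 of Pdgfra, 142 cells) and mature cells (at least 2 Mog UMIs without Gpr17 or Pdgfra, 833 cells), all with 0 Enpp6 UMIs, precursor and committed cells with 0 Mog UMIs, and precursor cells with 0 Gpr17 UMIs. The newly formed gate sets no limit on Gpr17, Mog or Pdgfra UMIs, so the 4 gates are not equally strict. The part of this in the shares was not tested. Newly formed cells were 20, 60, 47.3 and 83.2% of gated cells early, against 14.0, 28.1 and 9.53% at P60. The early mean was 52.6 ± 26.3% (SD, n = 4) and the adult mean 17.2 ± 9.68% (SD, n = 3), and P2 cortex overlapped the adult range (exact permutation test, p = 0.114, adjusted p = 0.152). Mature cells were absent from the gates of P2 cortex, P7 cortex and P7 SVZ, where 0 cells were found, and numbered 18 in P15 cortex and 227, 16 and 572 at P60. The low share in P60 white matter therefore stood beside 572 mature cells.

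**Figure D1:**
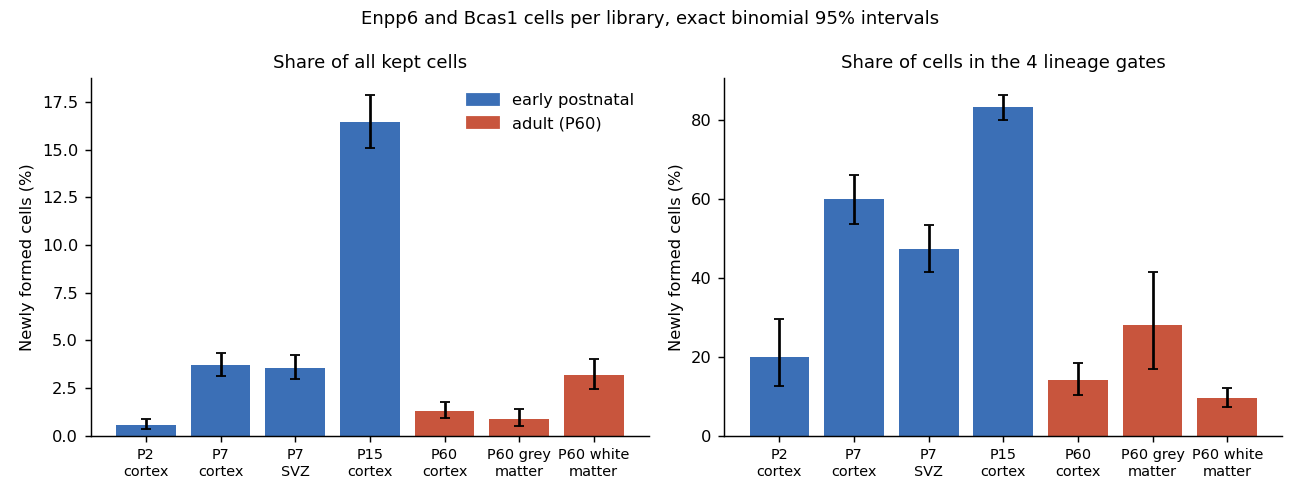
Bars give newly formed cells as a percent of all kept cells (left) and of cells in the 4 lineage gates (right) for each library, with exact binomial 95% intervals, early libraries in blue and adult ones in red. P15 cortex is highest on both scales, at 16.4% and 83.2%.

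Newly formed cells varied in Gpr17 and Mog, and limits of 2 UMIs on each gene were used to group them. Whether the groups are distinct kinds or follow each other in time was not tested. At least 2 Gpr17 UMIs with at most 1 of Mog were held by 454 cells, both genes at 2 or more by 311, Mog without Gpr17 by 115 and neither by 16. Within each library the 2 genes, taken per UMI, ran against each other across cells, with Spearman correlations of -0.32, -0.43, -0.54, -0.77, -0.66, -0.62 and -0.84 in library order over 19, 153, 133, 471, 41, 16 and 63 cells. These cells share a library, and both values are divided by the same cell total, so the correlations are descriptions.

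Cells with Gpr17 but not Mog made up more of the early newly formed cells and those with Mog but not Gpr17 more of the adult ones, though no share passed adjustment. Cells with Gpr17 but not Mog made up 89.5, 66.7, 70.7 and 42.0% of newly formed cells early, against 36.6, 37.5 and 34.9% at P60. Cells with Mog but not Gpr17 made up 0, 1.31, 0.752 and 14.2% early and 22.0, 37.5 and 47.6% at P60. The early and adult libraries did not overlap in either share, and both tests gave the smallest p the design allows (exact permutation test, p = 0.0571, adjusted p = 0.152, means 67.2 ± 19.5 against 36.3 ± 1.31% and 4.07 ± 6.79 against 35.7 ± 12.9%, SD, n = 4 and 3). The 0 of 19 cells in P2 cortex allows up to 17.6% by its exact interval. Cells with at least 2 Mog UMIs, whatever their Gpr17, made up 31.7 ± 19.1% early and 59.1 ± 6.82% adult (SD). In that share the groups overlapped, with 56.9% in P15 cortex and 51.2% in P60 cortex (exact permutation test, p = 0.114, adjusted p = 0.152). When each cell was thinned to 2000 UMIs, leaving out 9 shallower newly formed cells, the share with a Mog UMI was 22.4 ± 17.4% early and 53.7 ± 8.24% adult (exact permutation test, p = 0.114, adjusted p = 0.152), and the share with a Gpr17 UMI was 73.5 ± 5.74% and 56.9 ± 10.8% (p = 0.0571 by the same exact test, adjusted p = 0.152). Thinned shares kept the direction in both genes, but the Mog shares of the groups overlapped.

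**Figure D2:**
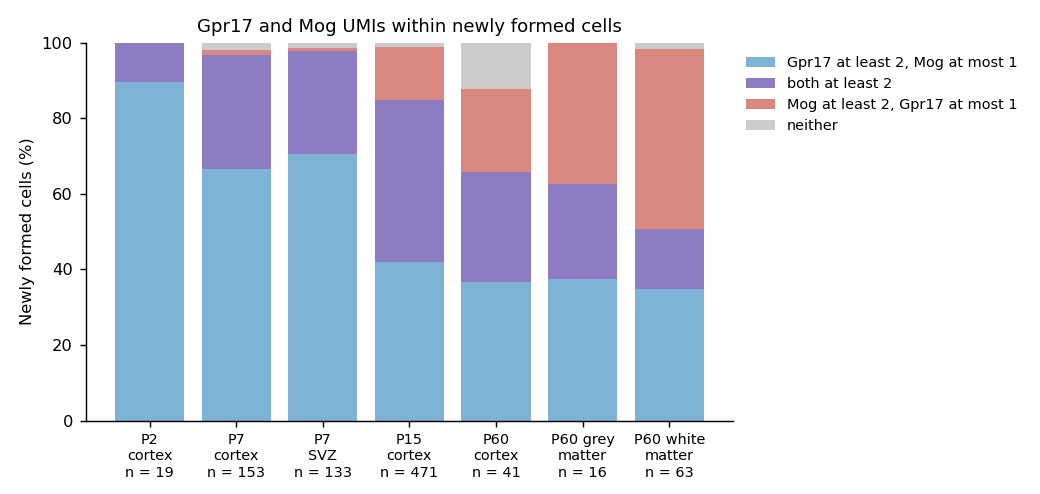
Stacked bars give the percent of newly formed cells in each library that held at least 2 UMIs of Gpr17, of Mog, of both or of neither, with the number of cells under each bar. Cells with Gpr17 alone make up 89.5% in P2 cortex and 34.9% in P60 white matter, and cells with Mog alone reach 47.6% there.

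Newly formed cells were next set against each neighbouring step within the same libraries, with counts summed per library and gate, the library as a block and the 7 genes used by the gates left out. The gates were cut from the same cells, so genes that accompany Enpp6, Bcas1, Pdgfra, Gpr17 or Mog were bound to differ, and the contrasts describe the steps. All p-values are from edgeR's quasi-likelihood test, adjusted over all genes tested. Against committed cells (5 libraries) 1142 of 6817 genes were higher, 16.8%, and 942 were lower, 13.8%. Against mature cells (P15 cortex and the 3 adult libraries) 299 of 6896 genes were higher, 4.34%, and 126 were lower, 1.83%. Against precursor cells (7 libraries) 1636 of 8398 genes were higher, 19.5%, and 1869 were lower, 22.3%. Newly formed cells were deeper than their neighbours, with medians of 7389.5, 8677, 9007, 7171 and 5306.5 UMIs in committed cells. With all cells thinned to 2000 UMIs, 600 genes differed from committed, 274 from mature and 1265 from precursor cells. Without P7 SVZ the committed contrast called 1381 genes in place of 2084. The mature contrast called 425 genes in all, but 1638 without P15 cortex, 79 without P60 cortex, 200 without grey matter and 39 without white matter, so its counts rest on which libraries enter. The 18 mature cells of P15 cortex also carried 2037 CPM of Slc1a2, 1265 CPM of Slc1a3 and 509 CPM of Cldn5, markers of astrocytes and endothelium, and the part of these cells in the mature contrast was not tested.

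Genes that peaked at the newly formed step came first. Of 6051 genes tested against both neighbours, 168 were higher than in both committed and mature cells, 2.78%. Of the 17 testable genes of the newly formed list, 15 were among them, but that list was written with this step in mind. Of that list 16 of 17 were higher than in committed cells (median log2 difference 3.38, against 0.022 over all genes), 16 of 17 than in mature cells (4.01, against -0.029) and 17 of 17 than in precursor cells (3.55, against -0.038). With P15 cortex left out 266 genes peaked at this step, without P60 cortex 47, without grey matter 100 and without white matter 24.

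Tcf7l2, a transcription factor that binds beta-catenin and chromatin remodellers, was highest at the newly formed step. It stood at 162, 81.1, 37.3, 95.5 and 97.8 CPM in committed cells. It stood at 401, 339, 475, 402, 677, 223 and 518 CPM in newly formed cells in library order. Mature cells held 34.5, 18.3, 38.9 and 21.9 CPM. The newly formed values did not overlap those of either neighbour: log2 difference 2.48 ± 0.25 (SE) against committed cells (edgeR, adjusted p = 8.9e-06) and 4.01 ± 0.42 against mature cells (adjusted p = 0.00268). Without P60 white matter the latter p was 0.0592. Tns3 was higher by 2.19 ± 0.21 (SE) than in committed cells (edgeR, adjusted p = 5.6e-06) and by 2.89 ± 0.36 than in mature cells, where it held 12.9, 44.8, 38.9 and 42.7 CPM (adjusted p = 0.00458, but 0.0638 without P60 cortex and 0.0576 without P60 white matter). Itpr2 was higher by 1.57 ± 0.22 (SE) than in committed cells (edgeR, adjusted p = 0.00014) and by 3.10 ± 0.35 than in mature cells, which held 8.63, 11, 15.6 and 17.6 CPM (adjusted p = 0.00336). Itpr2 was not above its neighbours everywhere: committed cells of P60 white matter held 137 CPM and newly formed cells there 126 CPM, and precursor cells of P60 grey matter held 144 CPM against 95.4 CPM.

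Promoters of genes that mark the step are shown as a description, 3 that hold the core described here and Itpr2, which does not. Whether these genes vary together was not tested. Each line runs 5' to 3' along the gene's strand from 250 bases before to 50 bases after the start that RefSeq gives on GRCm38.p6, and capitals mark the core letters bound by SoxE factors such as Sox10 (ACAAAG or ACAATG, on either strand). The windows are chr8:46986637-46986936 (+ strand) for Enpp6, chr11:8664486-8664785 (- strand) for Tns3, chr6:146502174-146502473 (- strand) for Itpr2 and chr19:55741560-55741859 (+ strand) for Tcf7l2, which has 2 such windows in the table.
Enpp6: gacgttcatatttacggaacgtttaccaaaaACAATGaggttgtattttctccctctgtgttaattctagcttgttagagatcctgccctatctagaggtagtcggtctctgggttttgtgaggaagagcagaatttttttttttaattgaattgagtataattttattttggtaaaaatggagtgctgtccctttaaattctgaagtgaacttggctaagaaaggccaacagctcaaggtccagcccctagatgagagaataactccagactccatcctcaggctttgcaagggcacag
Tns3: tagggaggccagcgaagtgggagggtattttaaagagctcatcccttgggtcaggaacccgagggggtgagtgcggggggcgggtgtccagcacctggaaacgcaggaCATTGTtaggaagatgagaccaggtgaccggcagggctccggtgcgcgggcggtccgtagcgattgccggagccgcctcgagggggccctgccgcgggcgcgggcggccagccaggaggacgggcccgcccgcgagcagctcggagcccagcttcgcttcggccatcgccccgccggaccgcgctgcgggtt
Tcf7l2: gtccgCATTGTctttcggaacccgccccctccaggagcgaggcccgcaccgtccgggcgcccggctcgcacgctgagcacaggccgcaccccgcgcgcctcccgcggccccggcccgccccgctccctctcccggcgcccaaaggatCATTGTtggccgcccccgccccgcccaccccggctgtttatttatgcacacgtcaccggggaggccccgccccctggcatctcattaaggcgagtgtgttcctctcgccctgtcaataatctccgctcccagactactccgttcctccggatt
Itpr2: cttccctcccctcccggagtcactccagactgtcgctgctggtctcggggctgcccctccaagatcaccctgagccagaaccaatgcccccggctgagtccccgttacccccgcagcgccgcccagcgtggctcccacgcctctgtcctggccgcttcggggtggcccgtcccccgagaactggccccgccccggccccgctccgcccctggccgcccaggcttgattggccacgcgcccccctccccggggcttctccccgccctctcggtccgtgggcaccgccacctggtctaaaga
The core occurred 1 time in the Enpp6 window, 1 time in the Tns3 window 2 times in the Tcf7l2 window and 0 times in the Itpr2 window. Of the other genes of the step that were searched, Cnksr3 and 9630013A20Rik held it, Fyn, Rras2, Tmem163 and Prom1 did not, and Bcas1 matched no window. Among the 168 genes that peaked at this step, 139 matched a RefSeq promoter and 29 of these held the core, 20.9%, against 7789 of 27025 promoters, 28.8%. The core bound by Tcf7l2 and its relatives (TCAAAG, either strand) was in 10 of the 139, 7.19%, against 16.2% of all promoters. A match of 6 letters is a description of the window and not a binding site.

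Other genes peaked at the same step. The long RNA 9630013A20Rik, at chr14:84458639-84476424 on mm10 (- strand) and annotated as antisense, stood at 310, 560, 1084, 505, 370, 103 and 329 CPM in newly formed cells. Mature cells held 0, 0, 0 and 0.663 CPM, and newly formed cells were higher by 9.19 ± 0.47 (log2, SE, edgeR, adjusted p = 0.00027). Whether reads were counted by strand is not given in the sources used here, so its reads cannot be told apart from those of an overlapping gene. Fyn, a Src-family kinase that signals from axon contact to the cytoskeleton, stood at 2424, 2524, 2082, 1336, 1927, 1137 and 1770 CPM in newly formed cells. It held 69.1, 32.0, 46.7 and 21.2 CPM in mature cells and 571, 555, 437, 621 and 372 CPM in committed cells (log2 differences 5.23 ± 0.40 and 2.12 ± 0.15 SE, edgeR, adjusted p = 0.00065 and 6.0e-07). Fyn was thus above both neighbours in every library compared.

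Further genes of the peak were small GTPase, adhesion and membrane genes. Rras2, a Ras-family GTPase, stood at 70.2, 207, 154, 428, 153, 31.8 and 107 CPM in newly formed cells and at 0 to 58.7 CPM in the other gates (log2 difference 3.96 ± 0.36 SE against committed and 4.15 ± 0.36 against mature cells, edgeR, adjusted p = 3.7e-06 and 0.00118). Its CPM in P15 cortex was the highest of the 7 libraries. Nfasc, the neurofascin by which glia and axons meet at the paranode, stood at 991, 1079, 1605, 1518, 1767, 342 and 897 CPM and was higher by 4.92 ± 0.19 (log2, SE) than in committed cells (edgeR, adjusted p = 4.7e-09). Against mature cells, at 255, 177, 148 and 179 CPM, Nfasc was higher by 2.23 ± 0.34 (edgeR, adjusted p = 0.00982, but 0.0800 without P60 cortex and 0.105 without P60 white matter). Epcam, an epithelial adhesion molecule, stood at 28.9, 82.1, 147, 37.0, 32.1, 7.95 and 25.2 CPM. Epcam had 0 UMIs in all precursor sums and in all mature sums. With UMIs pooled over libraries and a floor of 3 UMIs per group, it was at least 53.3-fold and 53.0-fold higher in newly formed cells. Libraries weigh unequally in the pooled counts, so these folds are not lower bounds within each library. Its call against mature cells (edgeR, adjusted p = 0.0296) was lost without P60 cortex (0.133), without grey matter (0.0586) and with minimums of 3 UMIs (0.0549). Rassf10, a Ras-association domain protein, had the largest value of the 168 genes for the smaller of the 2 differences, and stood at 37.2, 93.3, 136, 105, 139, 23.8 and 107 CPM against 0 to 8.11 CPM in the other gates. Casr, the calcium-sensing receptor, was too sparse to test and stood at 0 to 5.31 CPM.

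Newly formed cells still carried several genes of the committed step and held a few at lower levels. Bmp4, a secreted ligand of the committed step, stood at 718, 560, 457, 470, 791, 389 and 597 CPM in newly formed cells and at 349, 349, 189, 607 and 959 CPM in committed cells (log2 difference 0.57 ± 0.21 SE, edgeR, adjusted p = 0.062). In mature cells Bmp4 held 0, 0, 0 and 0.331 CPM (edgeR, adjusted p = 0.00013). Of the 13 committed-stage genes tested against mature cells 10 were higher, beside 4.34% of all genes. Among them were Vcan, a matrix proteoglycan (log2 difference 7.04 ± 0.40 SE, edgeR, adjusted p = 0.00027), and Neu4, a sialidase. Against committed cells 3 of 13 were higher and 3 lower (median log2 difference 0.25), beside 16.8 and 13.8% of all genes. The lower ones were the Notch ligand Dll3, the phosphatase Ptprz1 and the transcription factor Sox11. Dll3 stood at 230, 182, 122, 85.3 and 117 CPM in committed cells and at 45.4, 12.5, 15.9, 5.55, 10.7, 7.95 and 6.71 CPM in newly formed cells (log2 difference -3.25 ± 0.25 SE, edgeR, adjusted p = 1.2e-06).

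Precursor genes were lower in newly formed cells. Of 14 tested, 13 were lower than in precursor cells (median log2 difference -2.55) and 13 than in committed cells (-2.11). The shares of all genes were 22.3 and 13.8%. Cspg5, a neuronal-glial proteoglycan, had the largest difference of these from precursor cells, from 924, 844, 1310, 1654, 2371, 3484 and 2085 CPM to 28.9, 30.8, 60.8, 35, 21.4, 47.7 and 20.1 CPM (log2 difference -5.23 ± 0.24 SE, edgeR, adjusted p = 2.9e-10). Matn4 was the exception of the list, at 442, 551, 102, 225, 299, 294 and 354 CPM (-0.42 ± 0.22 SE against precursor cells, edgeR, adjusted p = 0.14). Against mature cells 4 of 8 were still higher, beside 4.34% of all genes: C1ql1, Cacng4, Lhfpl3 and Matn4. C1ql1, a secreted synaptic organiser, stood at 165, 96.2, 429 and 139 CPM in newly formed cells against 4.32, 0.915, 7.78 and 2.32 CPM in mature cells (log2 difference 5.67 ± 0.31 SE, edgeR, adjusted p = 0.00027). The gates fix Pdgfra UMIs in the mature but not in the newly formed cells.

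Cell-cycle genes were low in newly formed cells. All 28 tested S and G2M genes were lower than in precursor cells (median log2 difference -4.35), and 4 of 5 were lower than in committed cells. The shares of all genes were 22.3 and 13.8%. Top2a, the topoisomerase of replicating and dividing cells, stood at 0, 6.67, 12.1, 3.47, 0, 0 and 1.68 CPM in newly formed cells against 200, 161, 388, 206, 197, 0 and 44.0 CPM in precursor cells (log2 difference -5.12 ± 0.27 SE, edgeR, adjusted p = 2.7e-09). Mki67 stood at 0 to 7.72 CPM against 0 to 203 CPM. P60 grey matter held 0 CPM of both genes in both gates, where 16 precursor cells were summed. Against mature cells 0 of 4 tested cycle genes differed (edgeR), and 1 of 3 without P15 cortex.

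Most genes of the list of differentiation inhibitors were lower than in precursor and committed cells as well. Whether each member acts as an inhibitor in these cells was not tested. Of 15 tested genes of this list, 11 were lower and 2 higher than in precursor cells (median log2 difference -1.26). Of the same number, 9 were lower and 2 higher than in committed cells (-1.71). The shares of all genes were 22.3% lower and 19.5% higher against precursor cells, and 13.8 and 16.8% against committed cells. Hes5, a Notch effector, stood at 588, 162, 636, 235 and 19.6 CPM in committed cells and at 57.8, 30.4, 35.2, 14.6 and 5.03 CPM in newly formed cells of the same 5 libraries (log2 difference -3.38 ± 0.26 SE, edgeR, adjusted p = 1.2e-06). Id2, a dominant-negative helix-loop-helix factor, was lower by a log2 difference of -2.19 ± 0.22 (SE, edgeR, adjusted p = 8.9e-06). The 2 higher members were Gpr37, a receptor of late oligodendrocytes, and Klf9, a thyroid-hormone-induced factor. Klf9 stood at 34.1, 109, 64.6, 181 and 176 CPM in committed cells and at 178, 286, 209, 251 and 356 CPM in newly formed cells (log2 difference 1.41 ± 0.20 SE, edgeR, adjusted p = 0.00013).

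Transcription factors of the lineage went in both directions. Against precursor cells 11 of 20 were higher and 7 lower, beside 19.5 and 22.3% of all genes. Against committed cells 9 were higher and 5 lower, beside 16.8 and 13.8%. Myrf, the factor that switches on myelin genes, stood at 25.5, 36.5, 17.4, 44.3 and 39.1 CPM in committed cells and at 206, 167, 182, 233, 214, 183 and 203 CPM in newly formed cells (log2 difference 2.83 ± 0.21 SE, edgeR, adjusted p = 9.0e-07). Mature cells held 56.1, 232, 194 and 236 CPM of Myrf, which did not pass the test (0.11 ± 0.42 SE, edgeR, adjusted p = 0.94). Myrf lay between 167 and 233 CPM in all 7 newly formed sums. Nkx6-2, a homeobox factor of later oligodendrocytes, stood at 8.26, 57.1, 50.7, 321, 239, 294 and 297 CPM and was higher by 5.37 ± 0.43 (log2, SE) than in committed cells (edgeR, adjusted p = 1.4e-06). Its stage difference itself was 1.18 ± 0.75 (log2, SE, edgeR, adjusted p = 0.47). Olig1 was lower by -0.95 ± 0.11 (log2, SE) than in precursor cells (edgeR, adjusted p = 5.6e-06), and Sox9 by -3.97 ± 0.41 (adjusted p = 1.4e-06). Against mature cells 3 of 17 factors were higher, Tcf7l2, Nkx2-2 and Zfp488, and 0 lower, beside 4.34 and 1.83% of all genes. Nkx2-2, a repressor of the committed step, stood at 140, 175, 207 and 292 CPM against 4.32, 61.3, 46.7 and 45.4 CPM in mature cells (log2 difference 2.21 ± 0.43 SE, edgeR, adjusted p = 0.025). Leaving out P60 cortex, grey matter or white matter gave adjusted p values of 0.0705, 0.115 and 0.203 for Nkx2-2.

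**Figure D3:**
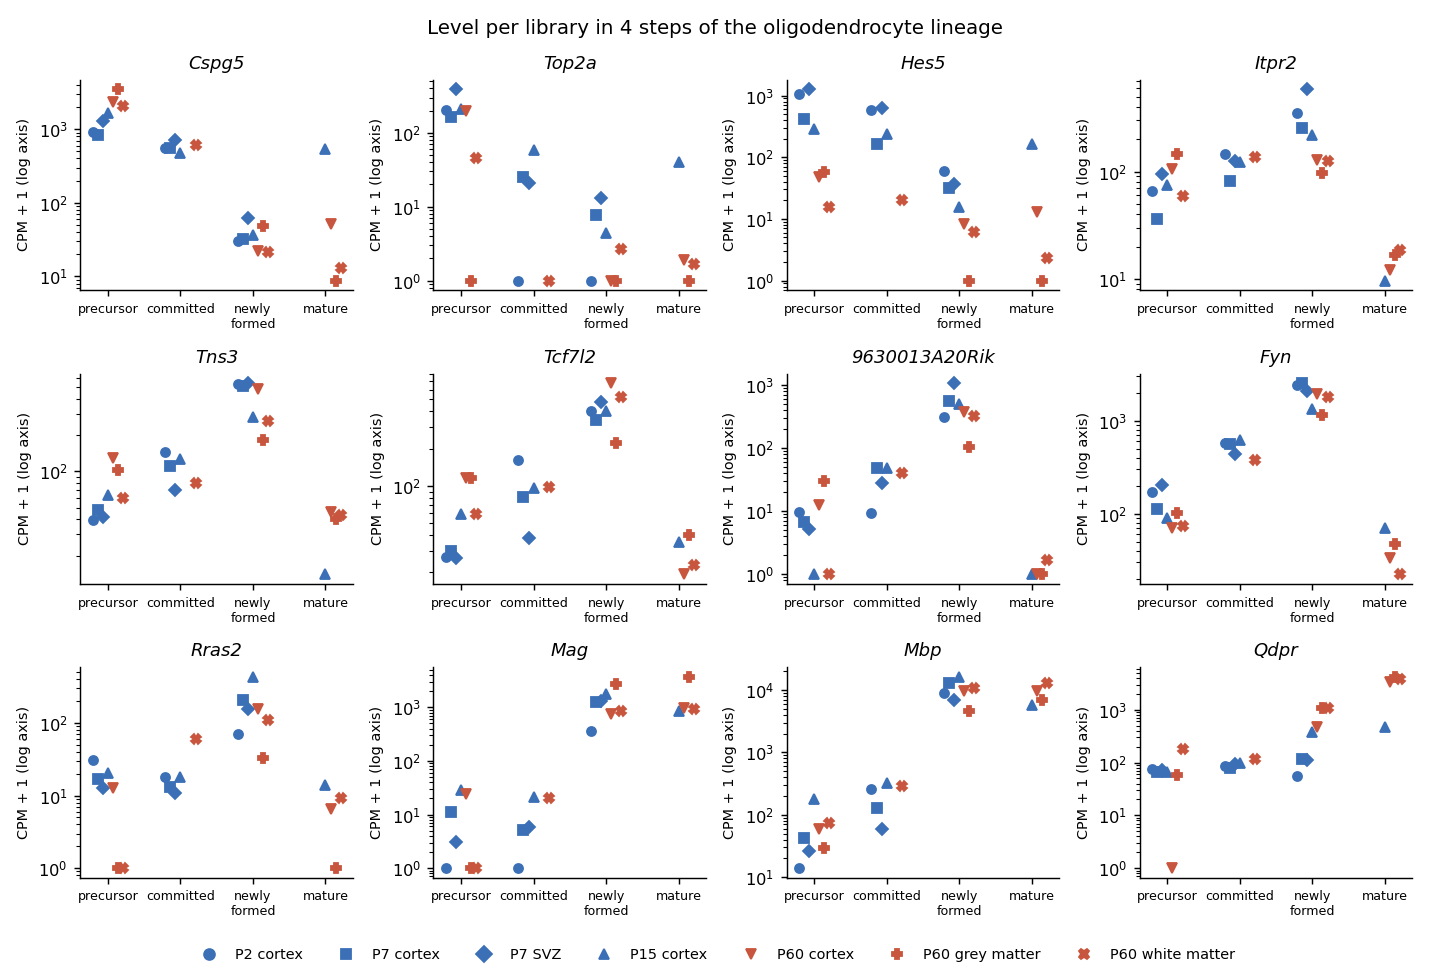
Points give the summed level (CPM + 1, log axis) of 12 genes per library in the precursor, committed, newly formed and mature gates, with early libraries in blue and adult ones in red and 1 symbol per library. Tns3, Tcf7l2, 9630013A20Rik, Fyn and Rras2 are highest at the newly formed step in every library, and Itpr2 in all but P60 grey and white matter. Cspg5, Top2a and Hes5 are higher before that step, except that P60 grey matter held no Top2a UMI in its precursor or newly formed cells. Mag and Mbp are high from that step onward.

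Myelin genes were already on. All 15 tested genes of compact myelin and the paranode were higher than in committed cells (median log2 difference 6.13) and higher than in precursor cells (6.07). The shares of all genes were 16.8 and 19.5%. Against mature cells 0 of 15 were higher and 1 lower (median -0.38), but 10 of 15 were lower without P15 cortex, where 12.4% of all genes were. When only newly formed cells with Gpr17 and at most 1 Mog UMI were summed, 10 of 15 were lower, against 6.3% of all genes. Mbp, myelin basic protein, stood at 255, 126, 57.1, 317 and 294 CPM in committed cells and at 9067, 13078, 6882, 16275, 9787, 4689 and 10653 CPM in newly formed cells (log2 difference 6.15 ± 0.22 SE, edgeR, adjusted p = 1.9e-09). Mature cells held 5797, 9680, 6899 and 12762 CPM of Mbp, a range that overlaps the newly formed one (-0.07 ± 0.38 SE, edgeR, adjusted p = 0.96). Mag, the adhesion protein on the axon side of myelin, stood at 367, 1284, 1305, 1810, 755, 2679 and 862 CPM against 0 to 20.5 CPM in committed cells (log2 difference 7.36 ± 0.25 SE, edgeR, adjusted p = 1.6e-09). Opalin, a late membrane glycoprotein, was the member below mature cells, at 453, 175, 437 and 278 CPM against 846, 1262, 1369 and 1997 CPM (-2.28 ± 0.40 SE, edgeR, adjusted p = 0.018). The adjusted p of Opalin was 0.122, 0.101 and 0.132 when cortex, grey matter or white matter of P60 was left out. Microglia of P15 cortex held 1135 CPM of Mbp, against 16275 CPM in newly formed cells and 179 CPM in precursor cells of the same library, and the source of these UMIs was not tested.

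Genes of mature oligodendrocytes went in both directions against mature cells. Of 17 tested, 4 were lower than in mature cells, the cytokine Il33, the glutamate receptor Grm3, the pteridine reductase Qdpr and the carbonic anhydrase Car2, and 2 were higher, S100b and Klk6, while 11 were not called (median log2 difference -0.93). Lower calls made up 1.83% and higher calls 4.34% of all genes. Without P15 cortex 10 of 17 were lower, against 12.4% of all genes. Qdpr stood at 374, 467, 1081 and 1063 CPM against 475, 3302, 4184 and 3889 CPM in mature cells (-1.98 ± 0.42 SE, edgeR, adjusted p = 0.035). Klk6, a secreted serine protease, ran the other way, at 23.3, 185, 628 and 138 CPM in newly formed cells against 0, 13.7, 7.78 and 13.3 CPM in mature cells (log2 difference 3.71 ± 0.42 SE, edgeR, adjusted p = 0.0034). At P2 and P7 the newly formed cells held 0, 0.417 and 0.482 CPM of Klk6, so its level there was at or near 0. S100b, a calcium-binding protein, stood at 1506, 3099, 1653 and 2207 CPM against 125, 318, 38.9 and 115 CPM (3.77 ± 0.34 SE, edgeR, adjusted p = 0.00139). Both genes were above mature cells in each of the 4 libraries.

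Lipid genes were higher than before the step, with smaller median differences than the myelin genes. Of 22 tested cholesterol synthesis genes 17 were higher than in committed cells (median log2 difference 1.13), 19 than in precursor cells (0.98) and 4 than in mature cells (0.29), among them Sqle and Mvd. The shares of all genes were 16.8, 19.5 and 4.34%. Neither Sqle nor Mvd was called against mature cells when any 1 adult library was left out (edgeR, adjusted p from 0.0915 to 0.309 for Sqle and from 0.0877 to 0.297 for Mvd). Thinned to 2000 UMIs, 4 of 10 were higher than in committed, 6 of 15 than in precursor and 0 of 15 than in mature cells, beside 16, 18.2 and 7.16% of all genes. Mvd, a decarboxylase of the mevalonate pathway, stood at 111, 68.9, 24.8, 23.9 and 0 CPM in committed cells and at 116, 136, 121, 156 and 62.1 CPM in newly formed cells of the same libraries (log2 difference 1.74 ± 0.35 SE, edgeR, adjusted p = 0.0020). Of the galactolipid and very long fatty acid genes 13 of 18 were higher than in committed cells (1.14) and 0 of 19 differed from mature cells (-0.04, edgeR). Ugt8a, which makes the galactolipid of myelin, stood at 51.1, 89.2, 79.5, 85.3 and 97.8 CPM in committed cells and at 405, 636, 1110, 1226 and 634 CPM in newly formed cells (log2 difference 3.57 ± 0.20 SE, edgeR, adjusted p = 1.0e-07). Of 13 genes of choline handling, the substrate side of Enpp6, 3 were higher than in precursor cells, close to the 19.5% of all genes. Against mature cells 0 of 13 were higher, beside 4.34% of all genes. Against committed cells 2 of 12 were higher and 1 lower, beside 16.8 and 13.8% of all genes. Slc44a1, a choline transporter, stood at 487, 567, 448, 745, 1175, 1065 and 995 CPM in newly formed cells and was higher by 2.05 ± 0.14 (log2, SE) than in committed cells (edgeR, adjusted p = 4.4e-07).

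Genes for the cytoskeleton and for contact with axons followed. Of 23 actin and membrane genes 15 were higher and 1 lower than in committed cells (median log2 difference 0.64), and 7 were higher and 1 lower than in mature cells. The shares of all genes were 16.8% higher and 13.8% lower against committed cells, and 4.34 and 1.83% against mature cells. Of 20 microtubule genes 9 were higher and 2 lower than in committed cells, and of 18, 4 were higher than in mature cells. Marcks, a membrane-linked actin regulator, stood at 1370, 1257, 382 and 842 CPM against 99.3, 16.5, 15.6 and 6.30 CPM in mature cells (log2 difference 5.41 ± 0.57 SE, edgeR, adjusted p = 0.0027). Tubb4a, the beta-tubulin of oligodendrocytes, stood at 162, 154, 112, 225 and 58.7 CPM in committed cells and at 1565, 1538, 1057, 2071, 2279, 1947 and 2127 CPM in newly formed cells (3.58 ± 0.19 SE, edgeR, adjusted p = 7.8e-08). Mature cells held 751, 2584, 2123 and 2378 CPM of Tubb4a (0.01 ± 0.34 SE, edgeR, adjusted p = 0.99). Of 19 adhesion genes 11 were higher and 2 lower than in committed cells (median 0.79). Sema4d, a membrane semaphorin, stood at 8.52, 12.2, 4.97, 13.6 and 58.7 CPM in committed cells and at 136, 320, 436, 644, 303, 167 and 346 CPM in newly formed cells (5.28 ± 0.32 SE, edgeR, adjusted p = 2.0e-07). Its levels did not overlap between the 2 gates.

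Smaller lists were mixed. Of the death and survival genes 3 of 12 were higher than in precursor cells, among them Tfeb and Bbc3, and 3 lower, among them Bcl2 and Trp53, close to the shares of all genes, 19.5 and 22.3%. Tfeb, a lysosomal regulator known to act through the death gene Bbc3 in these cells, stood at 95, 93.7, 51.6, 62.7, 49.9, 63.6 and 90.6 CPM against 0 to 14.4 CPM in precursor cells (log2 difference 4.28 ± 0.39 SE, edgeR, adjusted p = 3.5e-07). Bbc3 itself stood at 78.5, 18.7, 41.5, 5.55, 21.4, 0 and 1.68 CPM, highest in P2 cortex (1.83 ± 0.50 SE, edgeR, adjusted p = 0.0077, but 1.18 with adjusted p = 0.168 under DESeq2). The 0 in grey matter lies under the 23.8 CPM that 3 UMIs correspond to there. Of Wnt genes other than Tcf7l2, Tcf7l1 was higher than in committed cells, and the feedback target Axin2 stood at 0 to 32.1 CPM in newly formed cells with no call against precursor cells (-0.33 ± 0.49 SE, edgeR, adjusted p = 0.64). Of calcium-signalling genes 1 of 10, Itpr2, was higher and 4 lower than in committed cells, beside 16.8 and 13.8% of all genes. Of folding chaperones 7 of 16 were higher than in committed and 4 of 16 than in mature cells, beside 16.8 and 4.34% of all genes. All 4 tested iron genes were higher than in committed cells, but 2 of 4 without P15 cortex and 1 of 4 in the cells with Gpr17 and at most 1 Mog UMI, beside 13.1 and 14.2% of all genes. The storage gene Fth1 was not called without P15 cortex or P60 white matter (edgeR, adjusted p = 0.124 and 0.0915). The heme transporter Slc48a1 was not called without P7 SVZ, P15 cortex or P60 white matter (edgeR, adjusted p = 0.0653, 0.133 and 0.0709) or under DESeq2 (0.0553). Another member was Trf, transferrin, which was at 0, 27.5, 44.9, 1080, 1193, 4729 and 1823 CPM in newly formed cells. Microglia held 222, 401, 147, 781, 478, 754 and 620 CPM of Trf in library order, and the source of these UMIs was not tested. The difference of Trf was not called in those Gpr17 cells (0.32 on the log2 scale, edgeR, adjusted p = 0.723). Immediate-early and heat-shock genes, which tissue dissociation can induce, were lower in 10 of 15 cases than in precursor cells, beside 22.3% of all genes. In 0 of 15 cases they differed from mature cells (edgeR).

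**Figure D4:**
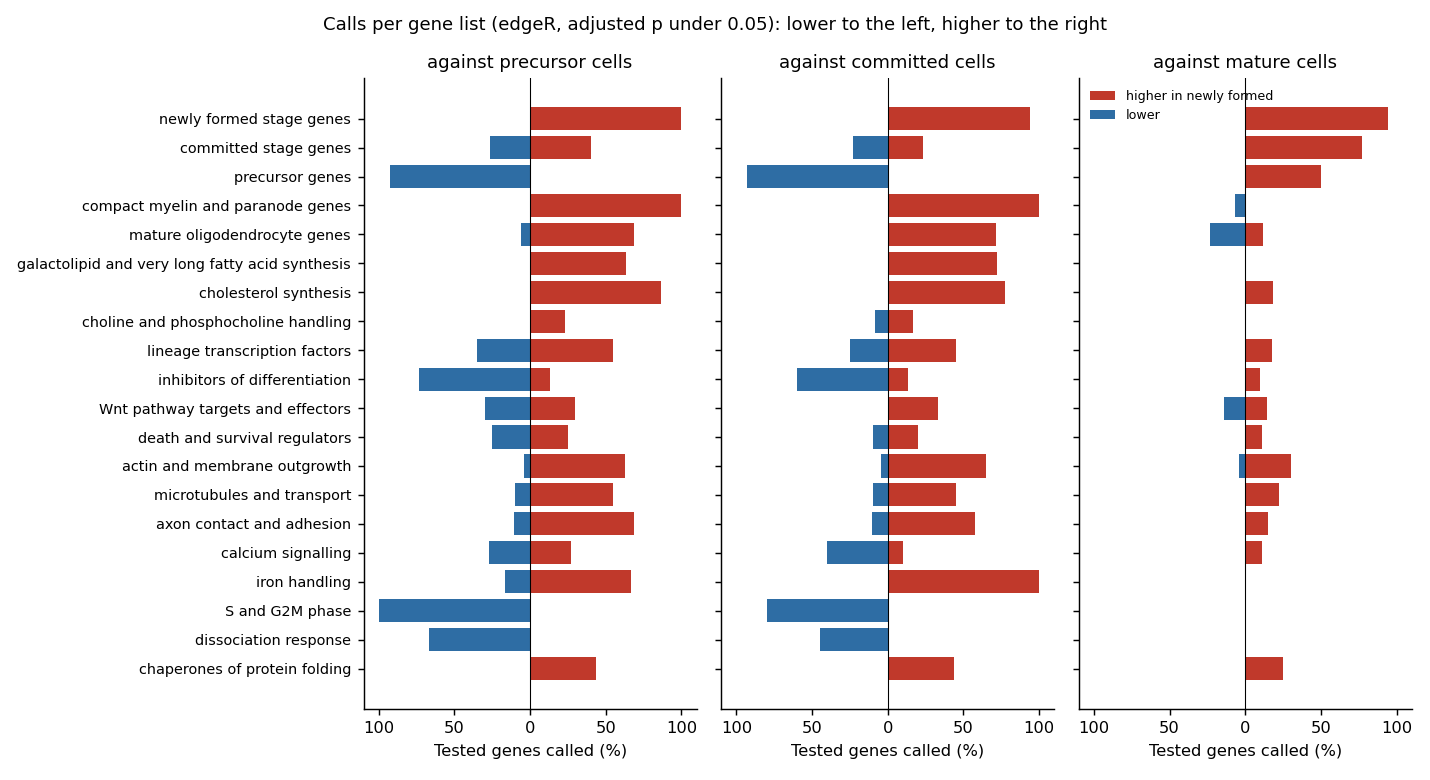
Bars give the percent of tested genes of each list called higher (right, red) or lower (left, blue) in newly formed cells against precursor, committed and mature cells of the same libraries (edgeR, adjusted p under 0.05). Myelin genes are called in full against precursor and committed cells, and the newly formed list in 16 of 17 genes against mature cells.

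Between stages the newly formed cells themselves differed in few genes. Of 6883 genes tested on their sums, 33 were higher at P60 than at P2 to P15, 0.479%, and 4 were lower, 0.0581% (edgeR, adjusted p under 0.05, with 1114 genes under 0.05 before adjustment). The total of 37 became 594 when P15 cortex was left out. Leaving out P2 cortex, P7 cortex or P7 SVZ gave 23, 19 and 21, and leaving out P60 cortex, grey matter or white matter gave 23, 10 and 6. When only cells with Gpr17 and at most 1 Mog UMI were summed, 4 genes were called, Xist, Gjc3 and Ifi27 higher and Eif2s3y lower, with grey matter left out for its 6 such cells. That setting, chosen after the data were seen, also holds 1 library less and at most 454 of the 896 cells.

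Hopx, Serpinb1a and Pmp22 were among the genes higher in adult newly formed cells. Hopx, an atypical homeodomain protein that does not bind DNA, stood at 0, 1.67, 0.965 and 6.52 CPM in the early libraries and at 199, 334 and 247 CPM at P60 (log2 difference 6.11 ± 0.56 SE, edgeR, adjusted p = 0.00207). The groups did not overlap, as was so for 1184 of the 6883 genes tested between stages. Hopx was called in each of the 13 alternatives in which it was tested, but was too sparse to test in cells with Gpr17 and at most 1 Mog UMI. In precursor cells Hopx stood at 40.9, 10.2, 24.2 and 15.6 CPM early and 0 CPM in all 3 adult sums. Serpinb1a, an inhibitor of serine proteases, stood at 0, 0.417, 0 and 3.33 CPM early and at 53.4, 461 and 107 CPM at P60 (log2 difference 6.68 ± 0.92 SE, edgeR, adjusted p = 0.00969). Pmp22, a tetraspan membrane protein best known from peripheral myelin, stood at 0, 5.83, 2.89 and 15.5 CPM early and at 146, 318 and 146 CPM at P60 (log2 difference 4.50 ± 0.59 SE, edgeR, adjusted p = 0.00969). Both were above every early library in each P60 library. Of the 13 alternatives that tested them each lost the call in 1, minimums of 3 UMIs for Enpp6 and Bcas1. There the log2 differences were 3.78 and 2.21 (edgeR, adjusted p = 0.394 and 0.404), and P60 grey matter, with 8 such cells, did not enter. Like Hopx, neither Serpinb1a nor Pmp22 was tested in cells with Gpr17 and at most 1 Mog UMI. Fgf1, a growth factor, stood at 0, 0.417, 0.482 and 3.61 CPM early and at 42.7, 23.8 and 48.6 CPM at P60 (log2 difference 4.35 ± 0.67 SE, edgeR, adjusted p = 0.018). The adjusted p of Fgf1 (edgeR) was 0.0711, 0.0638 and 0.206 when cortex, grey matter or white matter of P60 was left out. Hopx, Serpinb1a, Pmp22 and Fgf1 were low in every early library and could pass the low-count filter only through the adult sums. Genes low at both stages were left out, so the lack of overlap of these genes is a description.

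Fewer genes were lower in adult cells. Rbm3, a cold-shock RNA-binding protein, stood at 809, 760, 623 and 340 CPM early and at 139, 55.6 and 90.6 CPM at P60 (log2 difference -2.74 ± 0.40 SE, edgeR, adjusted p = 0.012, but 0.0689 without grey matter and 0.111 without white matter). Prr7, a membrane adaptor, stood at 95, 64.6, 93.6 and 54.8 CPM early and at 21.4, 23.8 and 11.7 CPM at P60 (-2.19 ± 0.40 SE, edgeR, adjusted p = 0.040). The call of Prr7 was lost without any 1 library except P15 cortex, with adjusted p values from 0.0836 (without P2 cortex) to 0.249 (without white matter). The remaining lower calls were the Y-linked genes. Hspa1a, a heat-shock gene that handling can induce, was higher at P60, at 0, 20.4, 0 and 4.30 CPM early against 85.5, 413 and 243 CPM (4.95 ± 0.91 SE, edgeR, adjusted p = 0.040), and Fos was higher as well (2.93 ± 0.49 SE, adjusted p = 0.028). Hspa1a was not called without P2 cortex, P7 SVZ or any 1 P60 library (edgeR, adjusted p from 0.0511 to 0.179), nor Fos without P2 cortex, P7 cortex, P60 grey matter or P60 white matter (0.0751 to 0.127). Their part in the other stage differences was not tested.

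Myelin genes as a group gave no call between stages, and P15 cortex stood with the adult libraries in several of them. Of 15 myelin genes 0 were called between stages (median log2 difference 0.55, against -0.016 over all genes, edgeR), and 7 were higher without P15 cortex, where 6.52% of all genes were. Of 15 mature genes 2 were called higher, Pmp22 and Sec11c (median 3.05), beside 0.479% of all genes. Without P15 cortex 15 of 15 were higher, against the same 6.52%, and 8 of 15 in thinned cells, against 1.51%. Sec11c (log2 difference 2.22, edgeR, adjusted p = 0.0319) was not called without P2 cortex, P7 cortex, P7 SVZ, P60 grey matter or P60 white matter (adjusted p from 0.101 to 0.142). With minimums of 3 UMIs it differed by 0.60 (edgeR, adjusted p = 0.546). Mal, a lipid-raft protein of myelin, shows this pattern, at 0, 0.833 and 0.482 CPM at P2 and P7, 2687 CPM at P15 and 1033, 1216 and 1213 CPM at P60. Car2 stood at 0, 9.17, 1.93, 384, 922, 3926 and 2155 CPM. Ptgds, which makes prostaglandin D2 and is abundant in mature oligodendrocytes, stood at 16.5, 39.6, 33.8, 269, 2482, 1613 and 951 CPM. Mal was high by P15, while Car2 and Ptgds were higher in all 3 adult libraries than in P15 cortex. Microglia held up to 134 CPM of Ptgds and 307 CPM of Mal.

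Of the newly formed list 0 of 17 genes were called between stages (median log2 difference -0.47, edgeR). Itpr2 was the nearest, at 219 to 584 CPM early and 95.4 to 128 CPM at P60 (-1.62 ± 0.37 SE, edgeR, adjusted p = 0.093). Its values did not overlap, as was so for 1184 of the 6883 genes tested. Cholesterol genes had a median of -1.18 with 0 of 23 called, and Hmgcs1 stood at 314, 586, 628 and 1244 CPM early and at 182, 119 and 247 CPM at P60 (-1.96 ± 0.46 SE, edgeR, adjusted p = 0.10).

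**Figure D5:**
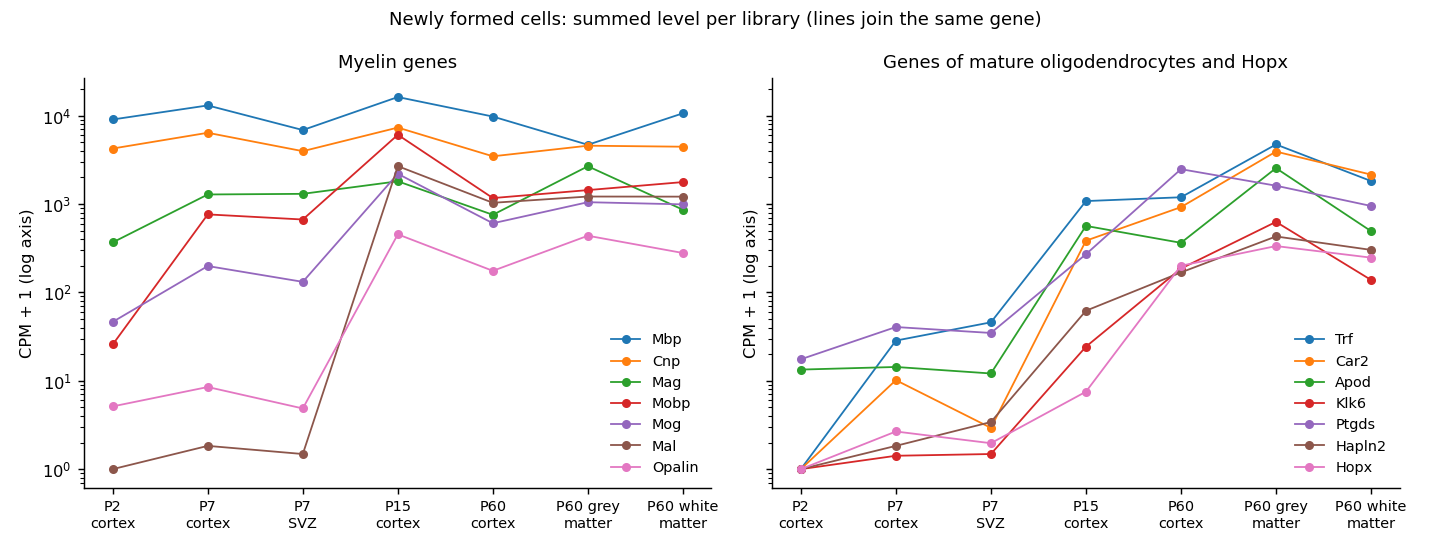
Points give the summed level of newly formed cells (CPM + 1, log axis) per library for 7 myelin genes (left) and for 6 genes of mature oligodendrocytes with Hopx (right), lines joining values of 1 gene. Mbp is high from P2 on, Mal and Opalin are higher at P15 than at P7, and Hopx stays at or below 6.52 CPM until P60.

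The stage difference of newly formed cells was also set against that of precursor cells of the same libraries. It was more positive in newly formed cells for 10 of 8398 genes, 0.119%, and more negative for 4, 0.0476% (edgeR, interaction of stage and gate, 850 genes under 0.05 before adjustment). The total of 14 was 5 without P7 cortex and 223 without P15 cortex. It was 8 without P60 cortex, 5 without grey matter and 3 without white matter. Hopx (adjusted p = 0.00068), Pmp22 (adjusted p = 3.0e-05) and Glul (adjusted p = 0.00068) were called in each of the 8 alternatives, DESeq2 and the 7 left-out libraries. Glul, glutamine synthetase, stood at 57.8, 82.5, 47.8 and 178 CPM early and at 381, 2146 and 538 CPM at P60 in newly formed cells. In precursor cells Glul stood at 77.6, 195, 64.1 and 249 CPM early and at 104, 317 and 191 CPM at P60. The ranges of Glul overlapped between stages in precursor cells and not in newly formed cells (interaction 3.06 ± 0.36 SE, edgeR). In newly formed cells, 1184 of the 6883 genes tested between stages did not overlap. Gjc3, a glial connexin, had the opposite sign of interaction, with 4.31, 5.81, 13.7 and 35 CPM early against 231, 417 and 279 CPM at P60 in precursor cells, and 273, 431, 492 and 559 CPM against 1571, 421 and 938 CPM in newly formed cells (interaction -3.38 ± 0.55 SE, edgeR, adjusted p = 0.0127). The adjusted p of Gjc3 was 0.0963 without P7 cortex, 0.0502 without grey matter and 0.181 without white matter. Ccnd2, a G1 cyclin, had 0 UMIs in all adult newly formed sums and 16.5, 41.7, 23.6 and 4.44 CPM in the early ones. With UMIs pooled over the libraries of each stage and a floor of 3 UMIs, Ccnd2 was at least 5.19-fold lower in adult cells. Precursor cells held 498, 499, 463, 77.8, 278, 173 and 1835 CPM of Ccnd2, and its interaction was not called without white matter (edgeR, adjusted p = 0.328, against 0.0017).

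Pairs of libraries that differ in region or age were set side by side without a test, since each side holds 1 library. Ratios carry exact conditional 95% intervals for counting error. Between P7 SVZ and P7 cortex, which also differ in strain, newly formed cells of the SVZ held 2.29 times the Itpr2 level (2.07 to 2.53) and 1.94 times that of 9630013A20Rik (1.81 to 2.07). They held 0.526 times the Mbp level (0.516 to 0.537) and 0.505 times that of Olig2 (0.456 to 0.558), while Mag was level at 1.02 (0.965 to 1.07). Enpp6 itself, fixed by the rule, was at 0.891. In the P7 SVZ 46 further barcodes, 25.7% of those that met the UMI rule, were left out by the gene minimum or the mitochondrial limit, against 1 barcode in P7 cortex.

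Between P60 white matter and grey matter, newly formed cells of white matter held 2.27 times the Mbp level (2.09 to 2.48), 2.63 times that of Nfasc (1.92 to 3.67) and 2.33 times that of Tcf7l2 (1.58 to 3.56). They held 0.322 times the Mag level (0.280 to 0.370), 0.386 times that of Trf (0.349 to 0.427) and 0.219 times that of Klk6 (0.159 to 0.302). The grey matter sum rests on 16 cells and carried the most microglial RNA, and the part of either in these ratios was not tested. Between P15 and P7 cortex, Mog at P15 was 11.1 times its P7 level (10.2 to 12.2), Mobp 7.97 times (7.61 to 8.36) and Mbp 1.24 times (1.23 to 1.26). Mbp differed least of these between the 2 ages. Tns3 and Fyn were lower at P15, at 0.554 (0.516 to 0.596) and 0.529 (0.513 to 0.547) times their P7 levels.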

How the data were processed

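Values in each deposited matrix are whole UMI counts, 1 for every pair of gene and barcode. Per the file headers the authors used Cell Ranger 3.0.2, and the submitters' processing notes name mm10. Companion files the authors deposited list gene and barcode names (unit other). For the strand of counting and the annotation release the sources used here give nothing. Kept cells had at least 500 detected genes and at most 10% mitochondrial UMIs. Doublets were not removed from the main sums; scrublet (scanpy 1.11.5, expected rate 0.06) marked 298 cells, 8 of them newly formed, and an alternative left them out.

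Counts were summed per library and gate with at least 10 cells and tested with edgeR 4.0.16 (R 4.3.3; TMM, filterByExpr, quasi-likelihood F test, Benjamini-Hochberg at 0.05), after a check on simulated data in which 200 genes were changed. The SE of a log2 difference is its size divided by the square root of F. Shares were compared with exact permutation tests over 35 splits (scipy 1.17.1). DESeq2 1.42.0, no filter, minimums of 3 UMIs, thinning to 2000 UMIs, no library block and leaving out each library were alternatives. Genes were named by rule: the 12 largest differences per direction with the same sign in every library (no overlap for stages), fixed genes of the lineage, and up to 4 called genes per list; a few genes named outside it are list members chosen for their role after their values were seen. Members and lists were chosen with earlier results of these data known. RefSeq promoter windows came from a table on GRCm38.p6, and positions from GENCODE M21 on mm10.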

Additional observations from a re-analysis of the deposited data

Results flagged for a closer look

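Samples that stood apart from the other 3 early libraries were found in 12 of 31 groups tested. Most groups were genes of the same cells, so they are not independent and the chance rate of about 1 in 20 does not apply to their count. The count is a description, and Enpp6 and Bcas1, which the rule sets, were among the groups. In every case it was P15 cortex. Its newly formed cells had the lowest CPM of the 4 early libraries for Bcas1 (1240.73 CPM) and Tns3 (281.05 CPM), both set beside values above 500 CPM in the other 3. They had the highest CPM for Mog (2200.96 CPM), Mobp (6085.44 CPM), Mal (2686.62 CPM), Opalin (453.481 CPM), Trf (1080.5 CPM), Car2 (383.982 CPM), Apod (565.291 CPM), Klk6 (23.3052 CPM), Ptgds (269.398 CPM) and Serpinb1a (3.32932 CPM). Microglia of P15 cortex held 781 CPM of Trf, 307 CPM of Mal, 249 CPM of Mog, 62.1 CPM of Apod, 59.1 CPM of Car2 and 11.8 CPM of Ptgds. The source of these UMIs was not tested.

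The stage difference itself differed between newly formed and precursor cells in 14 genes by the edgeR interaction test, led by Hopx, Pmp22 and Glul. In P7 SVZ 46 barcodes that met the UMI rule lay outside the gene minimum or the mitochondrial limit and entered no comparison, against 0 to 21 in the other 6 libraries.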

How the results depend on the processing

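The count of stage differences, 37 in all, was 225 with DESeq2, 417 with no filter on low counts, 641 with P2 and P7 set against P15 and P60, 2 with minimums of 3 UMIs and 4 in cells with Gpr17 and at most 1 Mog UMI; leaving out 1 library gave 6 to 594. The 3505 differences from precursor cells became 1265 in thinned cells and 1494 with no library block. The 2084 differences from committed cells became 600 and 817 in the same settings, and 1381 to 2111 with 1 library left out. The 425 differences from mature cells became 680 with DESeq2, 1201 with no filter, 194 with minimums of 3 UMIs, 274 in thinned cells and 910 in the Gpr17 cells, and 39 to 1638 with 1 library left out. The 14 interactions became 33 with DESeq2 and 3 to 223 with 1 library left out. The 168 genes above both neighbours became 309 with no filter, 103 with minimums of 3 UMIs, 77 in thinned cells and 24 to 266 with 1 library left out. In the Gpr17 cells Sec11c had a stage difference of -0.22, Trf a difference from precursor cells of -0.62 and Nkx2-2 a difference from committed cells of 0.52, each with the opposite sign to the value from all cells. The cause of these changes was not tested. The adult minus early share of kept cells, -4.29 percentage points, kept its sign in every setting but ranged from -6.12 to -0.838 with 1 library left out, the last without P15 cortex.

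Of genes named for the stage contrast, 2 of 16 called ones were called in every alternative that tested them, against 95 of 106 for precursor, 76 of 103 for committed and 19 of 60 for mature cells. No paired analysis was possible because the replicate numbers of the 2 stages only name libraries. Depth limits the P60 grey matter most, where 3 UMIs are 23.8 CPM. The settings with Gpr17 cells alone and with P15 set beside P60 were chosen after the data were seen.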
